A study of Mus musculus with 2 samples.

Results

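The peroxisome is a single-membrane organelle that is abundant in hepatocytes. Its proteins are made in the cytosol and imported by the peroxins, the Pex proteins, after which the matrix enzymes shorten very-long-chain and branched fatty acids and bile acid intermediates, and catalase removes the hydrogen peroxide that the acyl-CoA oxidases form. Rodent liver is known for a strong response of several of these genes to peroxisome proliferators, which act through the nuclear receptor PPARα. A list of 33 genes for peroxisome biogenesis and peroxisomal oxidation was looked up by symbol in the deposited table of 8551 genes, and 29 were present, namely 12 peroxins and 17 genes of oxidation, transport and coenzyme A turnover. Acaa1a, Acaa1b and Crat were not analysed here. Pex2 had no row under that symbol but is listed as Pxmp3 (Entrez 19302), and it is described beside the 29 genes without entering their counts.

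The libraries were made from the liver of 9-week-old male mice, wild type or db/db, taken about 3 h into the light phase. Both groups are labelled with a C57BL/6 background, and the db/db mice lack a working leptin receptor in all tissues, so that they are obese and diabetic and the liver is not the only organ affected. There was 1 library per group, and whether it pooled animals is not given in the sources used here, so that no difference has a replicate check and no test between the conditions was possible. Values are tags of a gene per 1000000 clean tags, which the authors call TPM. They are not divided by transcript length, so levels are compared between the libraries and not between genes. A log2 ratio is diabetic over normal TPM, with a 95% Clopper-Pearson interval from the reads that covers counting error only. A gene is called higher or lower at 1.5-fold. The study used that fold together with an FDR under 0.001, so the calls here are broader than its own.

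The libraries held 10278531 and 13508232 clean tags (normal and diabetic). Of these, 82963 and 137763 reads fell on the 29 genes, with 6 to 28248 reads per gene in normal liver and 19 to 44013 in db/db liver. Across all listed genes the median log2 ratio was 0.25, and 4 other scalings between the libraries lowered each log2 ratio by 0.25 to 0.31. Of 10 hepatocyte markers 7 were listed, and they summed to 12703 TPM in normal liver and 12342 TPM in db/db liver. Most of that sum was Alb (6801 and 6912 TPM) and Ambp (4660 and 3871 TPM). At least 1.5-fold higher were Asgr1 (199 and 380 TPM) and Asgr2 (38.4 and 59 TPM), and Hnf4a was lower (96.8 and 46.2 TPM). The 8 listed of 11 Kupffer cell and macrophage markers summed to 326.5 and 193.7 TPM, mostly through C1qa (176 and 50.7 TPM), and 4 were at least 1.5-fold lower while C1qb was higher (38.1 and 57.8 TPM). The 9 endothelial markers summed to 129.7 and 116.5 TPM. The 8 listed of 9 stellate cell markers summed to 176.9 and 222.9 TPM, and the 3 listed of 6 cholangiocyte markers to 61.5 and 107.3 TPM, nearly all of it Spp1 (57.2 and 103 TPM), while the intervals of Krt7 and Epcam covered equal levels. The part of these differences in the peroxisomal values was not tested, and in whole liver fewer cells of a type and less RNA per cell cannot be told apart.

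The tags come from DpnII sites, which read GATC. For the genes on which the results turn, the 20 bases from the GATC nearest to the 3′ end are shown as the part of the mRNA that the method is designed to count, with the site in capitals. They were read from GENCODE M21 transcripts of GRCm38, not from the deposited table, which holds no tags, and the cDNA was primed with random hexamers, so that other sites may have been counted too.
Pex11a: GATCtcgttaccttcagcgg
Pex3: GATCtaggagtggtggactc
Ehhadh: GATCtgagaacaatgtagat
Ech1: GATCaaggaggtagatatgg
Abcd3: GATCatacgtagttgtgaaa
Pex5: GATCagattttttttttttt
Pex7: GATCtcccaattttccttta
Hacl1: GATCttacattttggactgc
Nudt7: GATCcttgcctgacttcctg
Nudt19: GATCatccttcaaaggggat
The tags shown begin between 104 (Nudt19) and 883 bases (Hacl1) from the 3′ end of the longest transcript that holds them. Of the 28 genes examined in this way, 23 had a tag that occurred at no GATC site of another gene. The Peci tag was also found in Eci3, its close paralog, the Scp2 tag in the pseudogene Scp2-ps2, the Hacl1 tag in Gm49387, the Pex10 tag in Gm26604, and the Pex5 tag, mostly a run of T, in 2 other genes. The study counted clean tags mapped to unique genes apart from those mapped to multiple genes. It does not say whether the deposited values hold only the former, so the values of these 5 genes are less certain. If they do, the shared tags shown for Pex5 and Hacl1 may not have been counted.

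Peroxisomal genes did not differ in 1 direction between the libraries. Of the 29 genes, 12 (41.4%) were at least 1.5-fold higher in the diabetic library, against 34.4% of all listed genes, and 4 (13.8%) were at least 1.5-fold lower, against 15.3% of all listed genes. Both shares are near the background, so neither is a result about peroxisomal genes as a group. The median log2 ratio was 0.43, with a range from -2.09 for Nudt7 to 2.33 for Pex11a. The interval lay above equal levels for 19 genes, below them for 5 and across them for 5, where 40.2% of all listed genes had an interval above and 18.6% an interval below. At 2-fold the numbers were 7 higher and 2 lower, against 18.6% and 6.81% of all listed genes, and with the exact binomial test of the reads (FDR under 0.001) added to the 1.5-fold criterion they were 11 and 4, against 22.9% and 8.19%. That test compares the libraries, not the conditions. With TMM scaling the numbers were 9 higher (31%) and 5 lower (17.2%), against 24% and 23.6% of all listed genes, and the median log2 ratio was 0.18. Members of the same step often lay on opposite sides, as the plot of levels in both libraries shows.

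**Figure D1:**
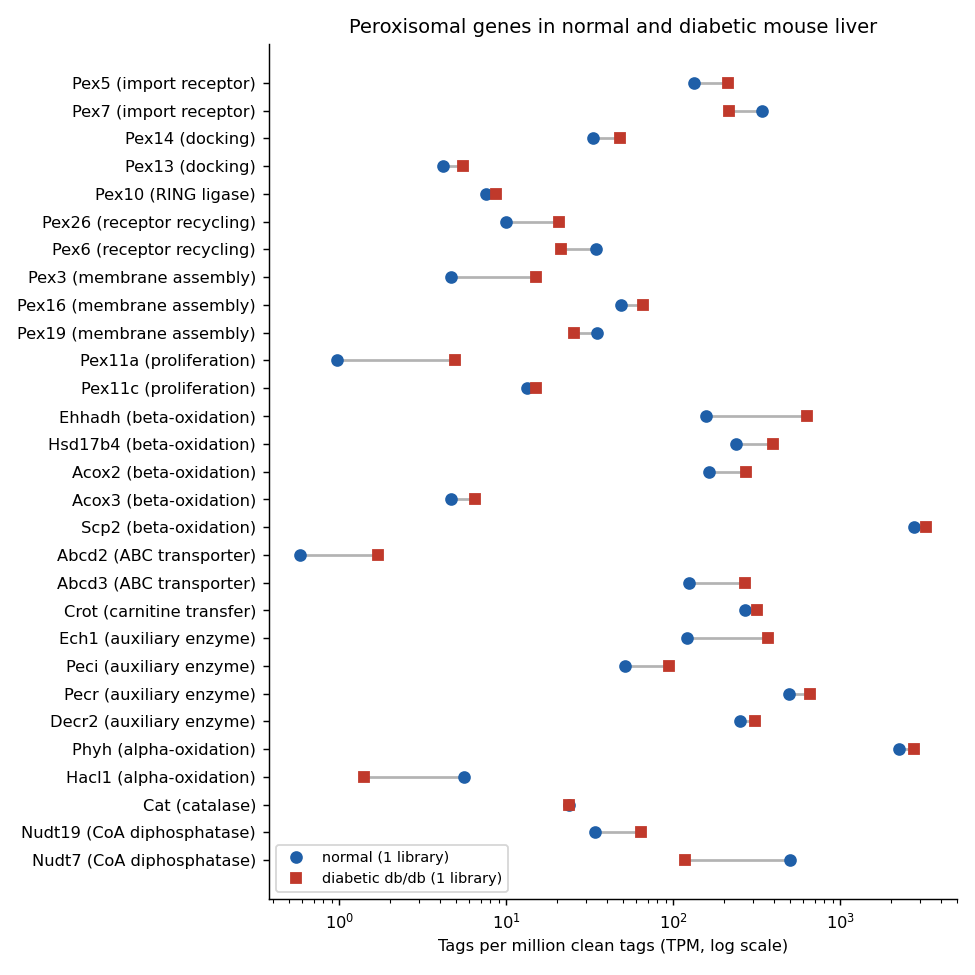
Level of each of the 29 genes in the normal library (blue circles) and the diabetic library (red squares), 1 library each, in TPM on a log axis, with the genes grouped by role. The widest gaps are those of Pex11a, Nudt7, Ehhadh and Hacl1, and the symbols of Cat overlap.

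The peroxins that make and divide the membrane included the largest relative difference. Pex11a, which elongates the peroxisome membrane before division and is a known target of PPARα, had 10 reads (0.97 TPM) in the normal library and 66 reads (4.89 TPM) in the diabetic library. This was a 5.04-fold higher level with a wide interval of the log2 ratio, 1.36 to 3.45, because of the few reads. The normal level of Pex11a was under 1 TPM, the mean a gene needed to be listed. Pex11a therefore has a row only through its diabetic level. Its relative Pex11c, listed in RefSeq as Pex11g, was at 13.2 and 15.1 TPM, with an interval that covered equal levels (log2 ratio 0.19, -0.13 to 0.51). Only the first of these members therefore differed beyond counting error.

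Pex3, Pex16 and Pex19 together insert proteins into the peroxisomal membrane, Pex19 as the soluble carrier and Pex3 as its docking receptor. Pex3 measured 4.67 TPM in normal liver and 15.1 TPM in db/db liver, 3.23-fold higher (log2 ratio 1.69, 1.23 to 2.18). Pex16 was at 48.7 and 65.7 TPM (log2 ratio 0.43, 0.27 to 0.59), within 1.5-fold. Pex19 went the other way, with 34.6 TPM in normal liver and 25.4 TPM in db/db liver (log2 ratio -0.45, -0.67 to -0.23). It was within 1.5-fold as deposited but at least 1.5-fold lower under each of the 4 scalings. The carrier and its receptor thus differed in direction between the libraries.

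The import receptors also differed in direction. Pex5, the receptor for the C-terminal targeting signal that most matrix enzymes carry, measured 133 TPM in normal liver and 212 TPM in db/db liver, 1.60-fold higher (log2 ratio 0.67, 0.58 to 0.77). Pex7, the receptor for the N-terminal signal of a few proteins such as Phyh, was at 339 and 215 TPM, 1.57-fold lower (log2 ratio -0.65, -0.73 to -0.58). Pex5 had 1367 and 2868 reads and Pex7 had 3482 and 2908. Since the other scalings lower each log2 ratio, Pex5 came within 1.5-fold under each of them (0.37 to 0.42) and Pex7 stayed called lower (-0.96 to -0.91).

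Further along the import cycle, Pex14 and Pex13 form the docking site for the loaded receptors. Pex14 was at 33.2 TPM in normal and 47.8 TPM in db/db liver (log2 ratio 0.53, 0.33 to 0.72), and Pex13, with 43 and 74 reads, had an interval that covered equal levels (log2 ratio 0.39, -0.17 to 0.97). The ubiquitin ligase subunit Pex10 had 78 and 117 reads (log2 ratio 0.19, -0.23 to 0.62). Its partner Pex2, listed as Pxmp3, was at 37.1 and 45.3 TPM (log2 ratio 0.29, 0.10 to 0.48). None of these genes was called in either direction.

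Receptor recycling was split as well. Pex26, the membrane anchor of the ATPase complex that pulls used receptors out of the membrane, measured 9.92 TPM in normal liver and 20.6 TPM in db/db liver, 2.08-fold higher (log2 ratio 1.06, 0.73 to 1.40). Pex6, a subunit of that ATPase, was at 34.1 and 21.3 TPM, 1.60-fold lower (log2 ratio -0.68, -0.91 to -0.45). Over the 12 peroxins, 4 were called higher (33.3%, against 34.4% of all listed genes) and 2 lower (16.7%, against 15.3%), which is the background, with a median log2 ratio of 0.41, and they summed to 663 TPM in normal liver and 658 TPM in db/db liver.

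**Figure D2:**
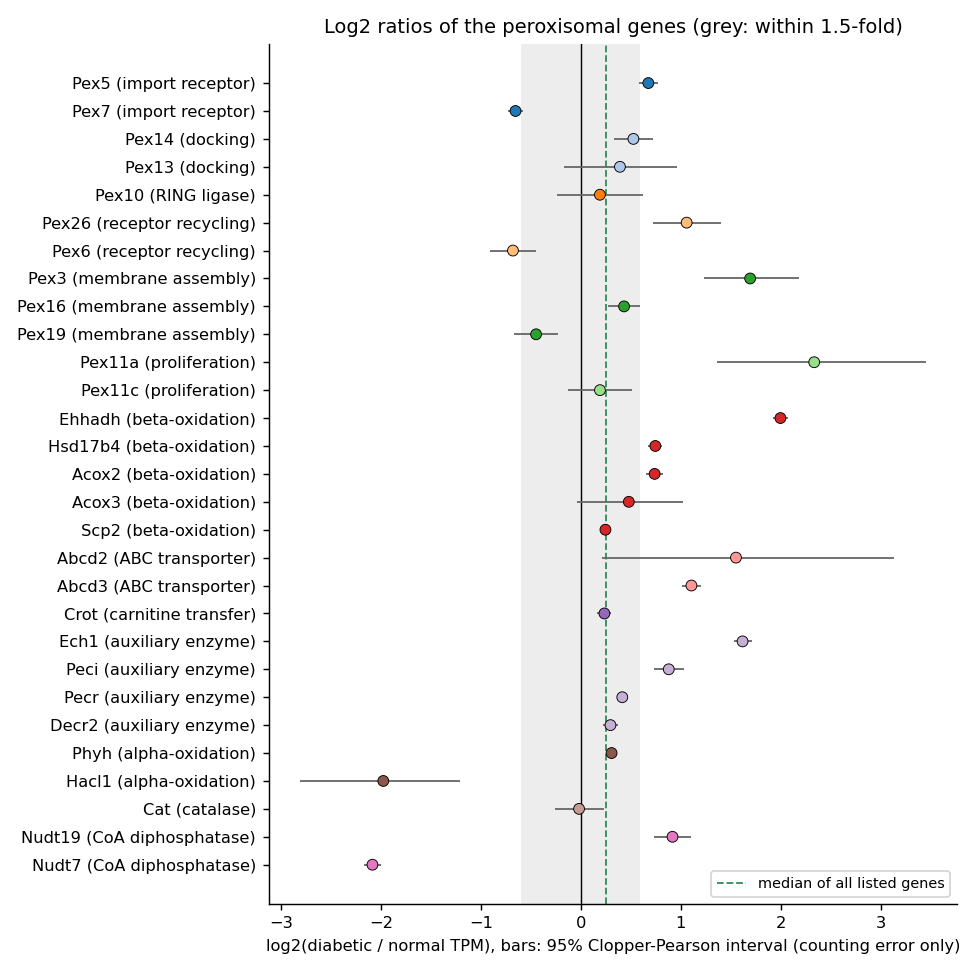
Log2 ratio of diabetic over normal TPM for each of the 29 genes, 1 library per group, grouped and coloured by role. Bars are 95% Clopper-Pearson intervals of counting error, the grey band is within 1.5-fold, and the dashed line is the median of all listed genes at 0.25. Receptors, recycling factors and CoA diphosphatases each have 1 gene on either side of the band.

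The 5 listed enzymes of peroxisomal beta-oxidation all had a log2 ratio above 0 as deposited, as did 5284 of the 8551 listed genes, and 3 were called higher, where the share over all listed genes was 34.4%. With TMM scaling 1 of the 5 was called higher, against 24% of all listed genes. Ehhadh, the bifunctional hydratase and dehydrogenase of straight-chain substrates, had 1619 reads in normal liver and 8488 in db/db liver, and its log2 ratio of 2.00 (1.92 to 2.07) lay above 96.1% of all listed genes. Hsd17b4, the bifunctional enzyme of branched substrates and bile acid intermediates, was at 236 and 395 TPM, 1.68-fold higher (log2 ratio 0.74, 0.68 to 0.81).

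Acox2, the oxidase of bile acid intermediates and branched-chain acyl-CoA, measured 164 TPM in normal liver and 273 TPM in db/db liver (log2 ratio 0.74, 0.65 to 0.82). Acox3, the pristanoyl-CoA oxidase, had only 48 and 88 reads, and its interval covered equal levels (log2 ratio 0.48, -0.04 to 1.02). Scp2, which encodes the thiolase and the sterol carrier protein from the same gene, was at 2748 and 3258 TPM (log2 ratio 0.25, 0.22 to 0.27). Its ratio was close to the median of all genes, and it was just under equal levels under each of the 4 scalings. Of these genes, Ehhadh was the only one at least 1.5-fold higher under every scaling (1.69 to 1.74), while Hsd17b4 and Acox2 came within 1.5-fold under each.

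Both transporters that carry acyl-CoA across the peroxisomal membrane were higher. Abcd3, the main one in liver, measured 125 TPM in normal liver and 268 TPM in db/db liver, 2.15-fold higher (log2 ratio 1.11, 1.01 to 1.20). Abcd2 had only 6 and 23 reads, a log2 ratio of 1.55 whose interval ran from 0.21 to 3.13, and it did not pass the exact binomial test. Both ratios stayed at least 1.5-fold higher under each scaling, but the interval of Abcd2, shifted with its ratio, then covered equal levels. In normal liver Abcd2 was at 0.58 TPM, under the mean of 1 TPM needed to be listed. It has a row only through its diabetic level. Crot, the carnitine octanoyltransferase that makes shortened acyl chains ready for export to mitochondria, was at 269 and 317 TPM (log2 ratio 0.24, 0.17 to 0.30), within 1.5-fold and just under equal levels under each scaling.

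The auxiliary enzymes for unsaturated chains were all above equal levels as deposited, and 2 of 4 were called higher, where the share over all listed genes was 34.4%. Ech1, a dienoyl-CoA isomerase, measured 121 TPM in normal liver and 371 TPM in db/db liver, 3.07-fold higher (log2 ratio 1.62, 1.53 to 1.71). Peci, an enoyl-CoA isomerase now named Eci2, was at 51.1 and 93.9 TPM, 1.84-fold higher (log2 ratio 0.88, 0.73 to 1.03). Under median-ratio scaling Peci was just short of 1.5-fold, at a log2 ratio of 0.57. Ech1 and Peci proteins are also found in mitochondria, and the tags do not tell the compartments apart.

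The other auxiliary enzymes differed little. Pecr, the peroxisomal enoyl-CoA reductase, was at 492 TPM in normal and 656 TPM in db/db liver (log2 ratio 0.41, 0.36 to 0.46). Decr2, the peroxisomal dienoyl-CoA reductase, was at 250.3 and 307 TPM (log2 ratio 0.30, 0.22 to 0.37), and under median-ratio scaling its log2 ratio was -0.01. At these depths the intervals exclude a 1.5-fold difference from counting error for both genes.

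Alpha-oxidation, which removes 1 carbon from phytanic acid before beta-oxidation can begin, showed a split. Phyh, the phytanoyl-CoA hydroxylase that starts it, measured 2229 TPM in normal liver and 2758 TPM in db/db liver (log2 ratio 0.31, 0.28 to 0.33), near the median of all genes. Hacl1, the lyase of the following step, had 57 and 19 reads, 3.94-fold lower in the diabetic library (log2 ratio -1.98, -2.81 to -1.21). Only 1.49% of all listed genes had a log2 ratio as low as that of Hacl1. Its tags were few, and its tag near the 3′ end is one of the 5 that also occur in another gene.

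The CoA diphosphatases, which cleave coenzyme A and its esters inside the peroxisome, were the most divergent pair. Nudt7 measured 496 TPM in normal liver and 117 TPM in db/db liver, a 4.24-fold lower level with a narrow interval (log2 ratio -2.09, -2.17 to -2.00). As low a log2 ratio was found for 1.33% of the listed genes. Nudt19 was at 34 and 64.3 TPM, 1.89-fold higher (log2 ratio 0.92, 0.74 to 1.10). Neither had fewer than 350 reads in either library. Both calls held under each of the 4 scalings, Nudt7 between -2.39 and -2.34 and Nudt19 between 0.61 and 0.66.

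Catalase showed no detectable difference as deposited. Cat measured 23.8 TPM in normal liver and 23.5 TPM in db/db liver, with 245 and 318 reads (log2 ratio -0.02, -0.26 to 0.23). The interval excludes a 1.5-fold difference from counting error in either direction.

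**Figure D3:**
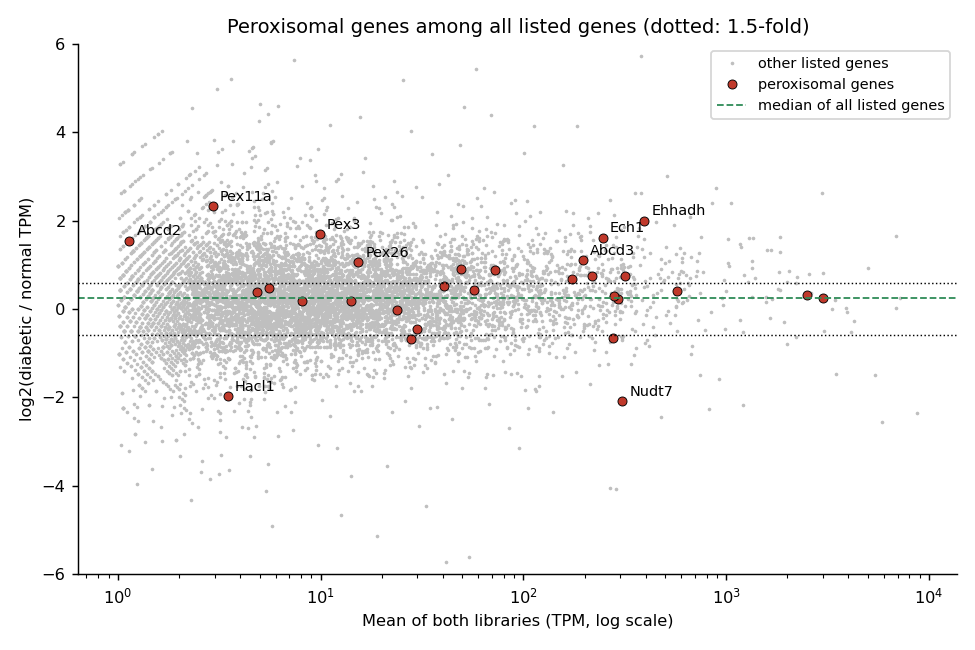
Log2 ratio of diabetic over normal TPM against the mean TPM of both libraries on a log axis, for the 29 peroxisomal genes (red) and the other listed genes (grey), of which 8464 are drawn and 58 lie beyond the axis or were without reads in 1 library. Dotted lines are 1.5-fold. Ehhadh, Ech1, Abcd3 and Nudt7 differ by more than 2-fold at mean levels of 196 TPM or more, whereas Pex11a, Abcd2 and Hacl1 do so at a mean of under 5 TPM.

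Over the 17 genes of oxidation, transport and coenzyme A turnover, 8 were called higher (47.1%, against 34.4% of all listed genes) and 2 lower (11.8%, against 15.3%), with a median log2 ratio of 0.48. With TMM scaling 6 were higher (35.3%, against 24%) and 2 lower (11.8%, against 23.6%). They summed to 7408 TPM in normal liver and 9541 TPM in db/db liver, and most of it came from Scp2 and Phyh. Without these genes the sums were 2431 and 3524 TPM. Of the 12 higher genes among all 29, 8 stayed at least 1.5-fold higher under each of the 4 scalings, namely Pex11a, Ehhadh, Pex3, Ech1, Abcd2, Abcd3, Pex26 and Nudt19. For Abcd2 this holds for the ratio only, since its shifted interval covered equal levels. Pex11a and Abcd2 were under 1 TPM in normal liver, so a higher diabetic level was a condition for their being listed. All 4 lower genes stayed at least 1.5-fold lower, which follows from the scalings, since each of them lowers the log2 ratio.

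Other genes were taken from a list of 57 assigned to the organelle, of which 38 were listed. Where their proteins lie in the cell was not examined, and the tags do not show it. At least 1.5-fold higher were 22 of the 38 (57.9%) and 0 were at least 1.5-fold lower, where the shares over all listed genes were 34.4% and 15.3%, and the median log2 ratio was 0.74. With TMM scaling 18 of the 38 were higher (47.4%, against 24% of all listed genes) and 1, Slc27a4, was lower (against 23.6%).

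The highest ratios in that list, among genes with at least 10 reads in both libraries, were those of acyl-CoA thioesterases. Acot3 had 12 reads in normal liver and 283 in db/db liver (log2 ratio 4.16, 3.34 to 5.14), and Acot4 had 11 and 129 reads (log2 ratio 3.16, 2.27 to 4.20). They are close paralogs, and whether they share tags was not examined. Abcd4 (13 and 62 reads, log2 ratio 1.87), Idh1, the NADP-dependent isocitrate dehydrogenase (135 and 467 TPM, 1.80), Gstk1, a glutathione transferase (74.1 and 216 TPM, 1.54), and Uox, the urate oxidase (648 and 1711 TPM, 1.40), followed. Hao2, singled out after its values were seen, had 0 and 108 reads. Set against 3 reads in the normal library, its diabetic level was 27.4-fold higher, and the lower end of its log2 interval was 4.45. It too has a row only through its diabetic level.

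The lowest ratios in that list were small. Slc27a4, a fatty acid transporter, had 27 and 24 reads (log2 ratio -0.56, -1.42 to 0.28). Ephx2, the soluble epoxide hydrolase, was at 248 and 205 TPM (log2 ratio -0.28, -0.36 to -0.20), and Mlycd, the malonyl-CoA decarboxylase, at 87 and 72.8 TPM (log2 ratio -0.26, -0.39 to -0.12). No gene of that list was as low as Nudt7 or Hacl1.

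Mitochondrial beta-oxidation, the route for most long-chain fatty acids, had 14 of 17 genes listed, and 12 were at least 1.5-fold higher (85.7%, against 34.4% of all listed genes) and 0 lower (against 15.3%), with a median log2 ratio of 1.08. Its highest ratios were those of Dci (1.90), Echs1 (1.72) and Acads (1.70). With TMM scaling 7 of the 14 were higher, against 24% of all listed genes, and the median was 0.83. Of the omega-oxidation list, 9 of 17 genes were listed, 4 higher (44.4%, against 34.4%) and 2 lower (22.2%, against 15.3%), with Cyp4a14, a fatty acid omega-hydroxylase (log2 ratio 5.72), Aldh3a2 (1.64) and Adh7 (1.08) at the top. The differences between these lists and the 29 genes were not tested.

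**Figure D4:**
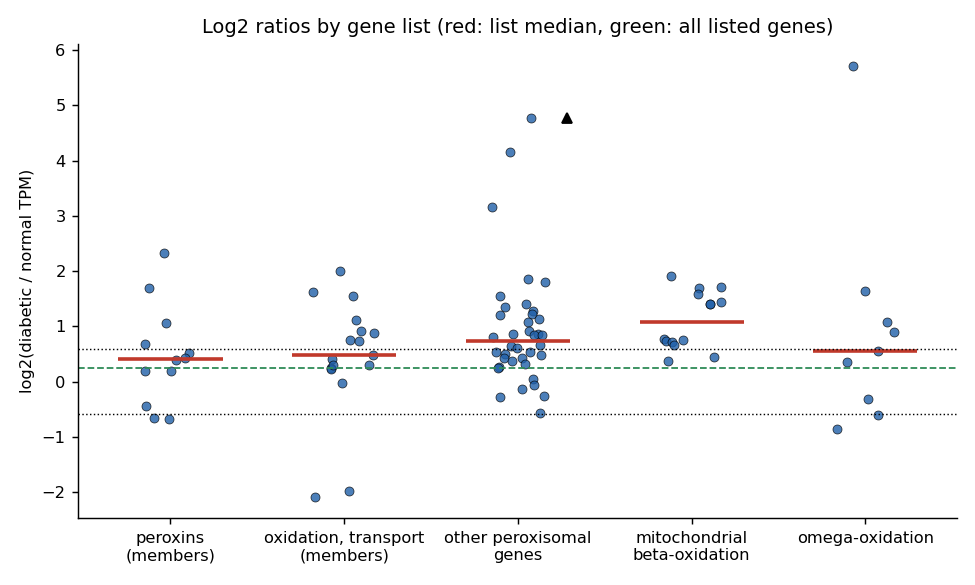
Log2 ratio of diabetic over normal TPM for each gene of the peroxins, the oxidation and transport genes, the other peroxisomal genes, mitochondrial beta-oxidation and omega-oxidation. Red bars are list medians (0.41, 0.48, 0.74, 1.08 and 0.55), the dashed line is the median of all listed genes, and dotted lines are 1.5-fold. The triangle marks Hao2, drawn with its 0 reads in the normal library set to 3. Ratios at or below -1.9 occur in the oxidation and transport genes, as Nudt7 and Hacl1.

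The promoters of these genes were searched for the direct repeat that PPARα and its partner RXR bind, AGGTCANAGGTCA on either strand, in windows from 250 bases before to 50 bases after the RefSeq start (GRCm38.p6). Of the 29 genes 26 had a window. No window held the repeat exactly or with 1 mismatch, where 0.528% of the 6623 listed genes with a window did so. With up to 2 mismatches, 2 of the 26 (7.69%) held it, against 3.84% of the listed genes, namely Cat (AGGTCAGAGAACA) and Acox2 (AGGACAGAGGTGA). The most altered genes, Pex11a, Ehhadh, Nudt7 and Hacl1, had no such match in these windows, which says only that the letters are not there.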

How the data were processed

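Liver poly(A) RNA of wild type and db/db mice was converted to tags at DpnII sites (digital gene expression), with 1 library for each group. The authors sequenced them on an Illumina 1G sequencer, removed adaptors, compared high-quality clean tags with RefSeq, and deposited values they call TPM, which are RPM values (tags of a gene per 1000000 clean tags) rounded to 2 decimals, with 0.01 in place of 0 and genes with a mean under 1 left out. The submitters' processing notes name mm9. The aligner is not given in the sources used here. The values rise in equal steps, so reads were computed from them. Within 0.0055 TPM, all 8513 values above the placeholder in normal liver and 8536 of the 8537 in db/db liver were whole reads.

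Groups were taken from the labels. Ratios were computed on the deposited values without a pseudocount. Intervals are 95% Clopper-Pearson intervals, and since tags carry no molecular identifiers, they reflect counting error alone. A count of 0 allows up to 3 reads, or 0.292 TPM in normal liver and 0.222 TPM in db/db liver. With 1 library per group there was no test between conditions. An exact binomial test of the reads with Benjamini-Hochberg adjustment, which compares the libraries only, was an alternative, and with a fold of 1.5 and an FDR under 0.001 it called 2655 of 8551 genes. The other alternatives were 4 scalings (to the sum of listed genes, TMM with 30% and 5% trimming computed without edgeR, median ratio over genes averaging 10 TPM or more, and 75th percentile), a fold of 2, pseudocounts of 0.1 or 1 TPM, and a mean of 5 TPM or more. Every listed member was named. Of the other peroxisomal genes, the 6 highest and 3 lowest ratios among genes with at least 10 reads in both libraries were named, and of the comparison lists the 3 highest. Some results on other genes that this rule names are not reported here. The members and lists were chosen with earlier results of these data known. Scripts were tested on simulated data. Computations used scipy 1.17.1, pandas 2.3.3 and numpy 2.4.6 in Python 3.11.15, and plots were drawn with matplotlib 3.10.9.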

Additional observations from a re-analysis of the deposited data

How the results depend on the processing

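Because the 29 genes were measured in 1 library per group, no library could be left out and no replicate spread was available. No paired analysis was possible because the groups share no replicate. The count of genes at least 1.5-fold higher was 8 to 12 and that of lower genes 3 to 5 under the 4 scalings, both pseudocounts, the minimum mean of 5 TPM and the exact binomial test, which left out Abcd2. At a fold of 2 there were 7 higher and 2 lower genes. The median log2 ratio fell from 0.43 to 0.17 with the libraries scaled to their listed genes, to 0.18 with TMM scaling, to 0.13 with median-ratio scaling and to 0.16 with upper-quartile scaling, which by construction lower each ratio. Of the other peroxisomal genes, 1 was lower under TMM scaling against 0 as deposited. With Pxmp3 counted as Pex2, an alternative chosen after seeing the data, 12 genes were higher and 4 lower. An alternative without Acaa1a and Acaa1b was planned and not run, since neither was analysed here. Of the 29 genes, 5 changed sign under at least 1 scaling (Decr2, Scp2, Crot, Pex11c and Pex10), and all 5 were within 1.5-fold. Depth limited Abcd2, Pex11a, Hacl1, Pex13 and Acox3 most, with between 6 and 88 reads per library.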

Other observations

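Receptors for peroxisome proliferators were also listed. Ppara, the PPAR isoform of hepatocytes, measured 36.6 TPM in normal liver and 82.1 TPM in db/db liver (log2 ratio 1.17, 95% interval 1.00 to 1.34). Pparg, the isoform of adipocytes, was at 7.59 and 51.8 TPM (log2 ratio 2.77, 2.43 to 3.13), and Ppard was at 13.5 and 5.55 TPM (log2 ratio -1.28, -1.71 to -0.87). The intervals of these 3 genes lay wholly apart from equal levels, and the other 3 genes of that list were not analysed here. No relation to the peroxisomal genes was tested, since there was 1 library per group.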
